A study of Mus musculus with 17 samples.

Results

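Haematopoietic stem cells (HSCs) of young mice injected with CCCP were compared with HSCs of young control mice by RNA sequencing, over all genes. The comparison took 9 of the 17 libraries of the series, chosen by title: 5 young CCCP and 4 young control libraries. All mice were C57BL/6 Jrj. Young mice were 8 to 12 weeks old, and the CCCP group received 1 intraperitoneal injection of 0.3 mg/kg. The other 8 libraries, 3 from old controls over 18 months of age and 5 from old mice given 5 daily intraperitoneal injections of 2 mg/kg Mito-Q, were fitted together with the young libraries, so they share in the filter and the estimate of spread, and were otherwise used to show where the CCCP libraries differed. In every group marrow cells were obtained by crushing bones, enriched for c-kit, and sorted into trizol as live cells without lineage markers that carried c-kit, Sca1 and CD150 and lacked CD48. A vehicle for the controls, the time between injection and sorting, and the mouse behind each library are not stated in the labels. Each p-value thus reflects only how much libraries of a group vary, which may be technical.

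CCCP is a protonophore: it carries protons across the inner mitochondrial membrane and collapses the membrane potential that drives ATP synthesis. Long-lived HSCs are mostly quiescent and keep low mitochondrial activity. The question the comparison addresses is what transcripts differ in young HSCs after an injection of CCCP. The read counts hold no measure of the membrane potential in these cells. Immediate early genes, which make up much of what follows, are transcribed within minutes of a stimulus without new protein synthesis. They encode short-lived transcription factors (Fos, Jun, Egr and Nr4a families) and the phosphatases and RNA decay factors that end the response. They are also known to respond to tissue dissociation.

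The 9 young libraries held between 5649611 and 8120443 reads in genes. Reads outside genes or assigned to none made up from 40.0% in young CCCP 2 to 76.2% in young CCCP 3 of the entries counted. Across genes, the median Spearman correlation of a library with the other young libraries was 0.656 for young CCCP 3 and 0.799 for young control 3, and 0.888 to 0.910 for the other 7. These 2 libraries stood apart within their groups, so results that rest on them are given with and without them. Young control 3 also had the largest share of reads from mitochondrial DNA, 6.60% of gene reads, against 0.967% to 1.92% elsewhere. The sort markers were present in all young libraries: Kit ran from 552 to 1762 CPM (read counts scaled to library size with TMM factors), Ly6a, which encodes Sca1, from 144 to 352, and Slamf1, which encodes CD150, from 35.8 to 87.8. Cd48 ran from 0 to 4.64 CPM in controls and from 0 to 19.2 CPM with CCCP.

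Upstream sequences of 4 genes are shown because a short element was common upstream of the genes that fell. Fos, Nr4a1 and Btg2 fell and Elane rose, and Btg2, an antiproliferative factor, was chosen for display after its values were seen. Each sequence is the 250 bases before the RefSeq start of the gene (GRCm38.p6), 5′ to 3′ in the direction of transcription. Capitals mark the cyclic AMP response element (CRE) half-site TGACG on either strand, or the full element TGACGTCA, both known as binding sequences of CREB and ATF factors.
Fos (chr12:85473640-85473889, plus strand): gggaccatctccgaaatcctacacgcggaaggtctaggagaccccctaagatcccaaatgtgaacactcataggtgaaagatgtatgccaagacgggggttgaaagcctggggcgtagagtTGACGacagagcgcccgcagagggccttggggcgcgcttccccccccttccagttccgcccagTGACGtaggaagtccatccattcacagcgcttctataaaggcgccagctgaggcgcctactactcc
Nr4a1 (chr15:101266596-101266845, plus strand): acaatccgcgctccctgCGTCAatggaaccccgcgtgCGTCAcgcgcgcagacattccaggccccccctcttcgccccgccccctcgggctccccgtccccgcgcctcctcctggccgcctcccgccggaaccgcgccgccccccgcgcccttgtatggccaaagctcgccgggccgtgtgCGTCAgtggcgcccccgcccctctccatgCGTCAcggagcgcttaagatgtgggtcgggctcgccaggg
Btg2 (chr1:134079156-134079405, minus strand): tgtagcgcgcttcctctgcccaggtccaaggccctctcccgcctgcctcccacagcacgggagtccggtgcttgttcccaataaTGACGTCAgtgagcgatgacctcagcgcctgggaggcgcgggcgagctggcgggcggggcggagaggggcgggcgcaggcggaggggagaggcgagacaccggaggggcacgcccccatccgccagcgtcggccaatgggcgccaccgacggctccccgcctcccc
Elane (chr10:79886062-79886311, plus strand): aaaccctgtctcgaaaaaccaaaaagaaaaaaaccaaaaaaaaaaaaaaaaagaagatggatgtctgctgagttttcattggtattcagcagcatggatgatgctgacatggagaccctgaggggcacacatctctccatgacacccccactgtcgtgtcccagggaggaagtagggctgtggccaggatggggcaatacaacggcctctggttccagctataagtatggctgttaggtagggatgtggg

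The Fos window held 2 half-sites, the Nr4a1 window 4 and the Btg2 window 1 full element, which contains a half-site on each strand, while the Elane window held none. TGACG was found on either strand in 65 of the 119 lower genes that matched a RefSeq window (54.6%), in 1 of 10 higher genes and in 3776 of 14742 tested genes (25.6%). A gene counted if any of its windows held the element. Of all windows counted singly, 17.8% held it. The full element TGACGTCA was in 13 of the 119 (10.9%), against 2.48% of tested genes. The lower genes' windows were also richer in G and C, with a median of 64.8% against 57.2% over tested genes. The AP-1 site TGANTCA was in 8.40% of the lower genes and 6.78% of tested genes, and the CArG box, the sequence bound by serum response factor, in 2.52% and 1.46%. The NF-kB site was in 15.1% and 9.75%, and TATAAA in 11.8% and 10.4%. Of 37 genes of the immediate early lists with a window, 64.9% held TGACG and 10.8% the CArG box. The AP-1 site was in 5.41% of these 37 genes, and the NF-kB site and TATAAA each in 18.9%. A match describes these letters in this window and does not show a bound site.

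The main change with CCCP was a fall of transcripts, led by immediate early genes. By edgeR's quasi-likelihood test, 176 of 24523 genes passed a Benjamini-Hochberg adjusted p of 0.05 (0.718%): 160 fell (0.652%) and 16 rose (0.0652%). In 156 of the 160 every CCCP library lay below every control library, as it did in 708 of all tested genes (2.89%). All 160 were also called lower by DESeq2, which called 558 of 18976 genes (2.94%), 292 of them lower (1.54%). Without young control 3 and young CCCP 3 the test called 162 genes lower (0.692%), and 137 of the 160 were among them. The median log2 fold change over all tested genes was 0.21, and 2735 genes (11.2%) had an unadjusted p under 0.05, 6.35% higher and 4.80% lower. Of the 160 genes, 34 belonged to the lists of immediate early transcription factors and feedback regulators.

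Among 23 immediate early transcription factors, 18 fell and none rose, with a median log2 fold change of -4.24. DESeq2 called 20 of them lower. Fos, which pairs with Jun proteins to form AP-1, was at 2380, 2088, 1436 and 1903 CPM in young control 1 to 4 and at 10.7, 32.3, 21.6, 5.72 and 4.80 CPM in young CCCP 1 to 5. The lowest control was far above the highest CCCP library. Fos fell by 7.02 on the log2 scale (SE 0.48, adjusted p = 5.7e-10). Its relative Fosb was at 571, 709, 1584 and 816 CPM in controls and at 2.58, 2.43, 9.33, 1.91 and 3.68 CPM with CCCP, with young CCCP 3 the highest of its group. Jun, the usual partner of Fos in AP-1, was at 1420, 1220, 1312 and 1653 CPM in controls and at 114, 154, 92.4, 82.3 and 47.2 CPM with CCCP. Jun thus kept more of its level than Fos and Fosb did: it fell by 3.84 (SE 0.31), and Fosb by 7.88 (SE 0.56).

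Nr4a1, an orphan nuclear receptor, had the largest fold change of the Nr4a receptors. It was at 3048, 2780, 911 and 3685 CPM in controls and at 2.68, 22.3, 18.7, 10.7 and 13.9 CPM with CCCP. Young control 3 was the lowest control and still stood well above all CCCP libraries. Nr4a1 fell by 7.58 (SE 0.54, adjusted p = 1.1e-09), and Nr4a2 by 4.94 (SE 0.36). Egr1, an early growth response zinc finger factor, was at 1524, 1625, 829 and 1343 CPM in controls and at 32.4, 46.5, 69.2, 32.7 and 25.1 CPM with CCCP. Egr1 fell by 5.01 (SE 0.31, adjusted p = 2.3e-10), the smallest p among these genes. Klf2, a Kruppel-like factor tied to quiescence in lymphocytes and endothelium, was at 230, 380, 136 and 417 CPM in controls and at 2.58, 1.22, 7.0, 6.19 and 6.40 CPM with CCCP. Hes1, a repressor downstream of Notch, ran from 95.3 to 272 CPM in controls and from 1.49 to 8.17 CPM with CCCP. Junb fell by 4.24 (SE 0.39), and its locus overlaps Prdx2 on the opposite strand. The strand setting of the counting is not given in the sources used here.

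The 5 members of this list that did not pass were Egr2, Fosl1, Nr4a3, Myc and Srf. These 5 were named because so few did not pass. Egr2 and Fosl1 averaged 9.02 and 15.5 CPM in controls and 0.437 and 1.22 CPM with CCCP (adjusted p = 0.069 and 0.19). Both were at 0 in young control 3. Nr4a3 ran from 17.6 to 27.4 CPM in controls and from 0.135 to 13.4 CPM with CCCP, with no overlap between groups (adjusted p = 0.24). Myc, which drives growth and ribosome production, ran from 124 to 382 CPM in controls and from 99.0 to 571 CPM with CCCP, so its groups overlapped. Srf, the serum response factor itself, averaged 6.02 and 11.7 CPM (adjusted p = 0.78).

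**Figure D1:**
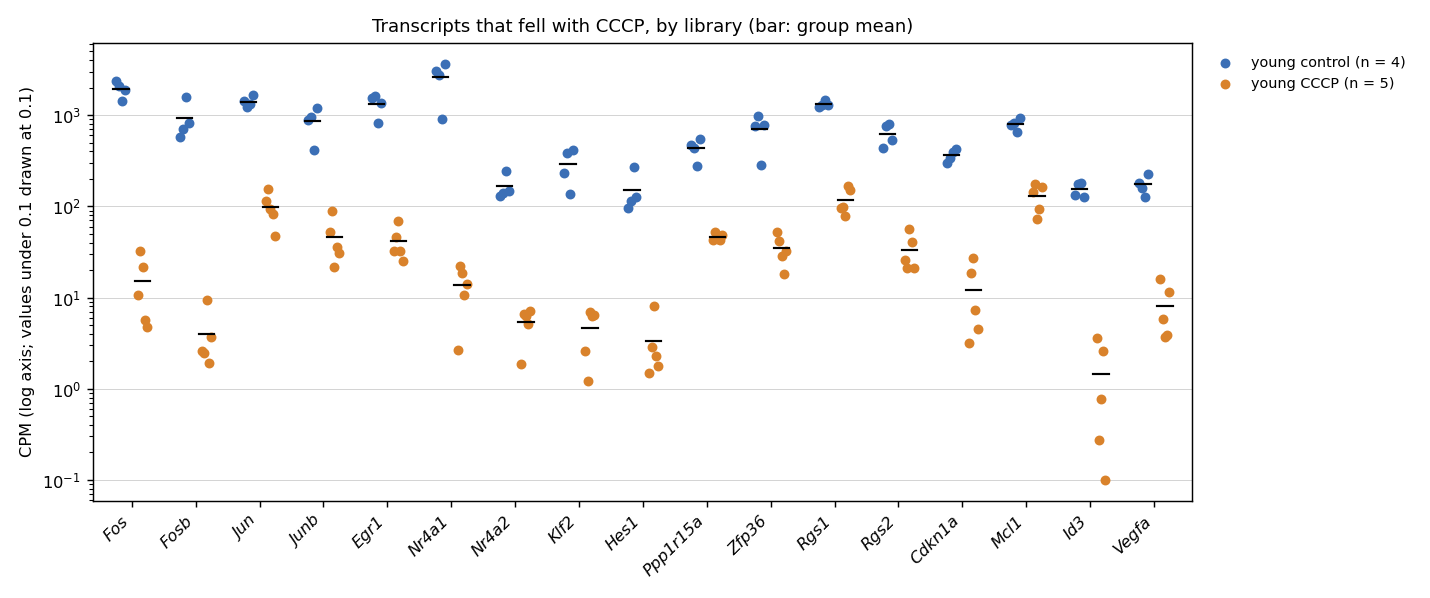
Level of 17 transcripts that fell with CCCP, in CPM on a log axis, with a point for each young control (n = 4) and young CCCP (n = 5) library and a bar for the group mean. For each transcript all CCCP points lie below all control points, with Fos between 4.80 and 32.3 CPM against 1436 to 2380 CPM.

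Genes that limit the immediate early response fell with it. Of 25 tested feedback regulators, 16 fell and none rose, with a median log2 fold change of -2.76. Ppp1r15a, which directs the phosphatase that restores translation after stress, was at 475, 439, 275 and 543 CPM in controls and at 43.2, 52.3, 43.9, 42.6 and 48.3 CPM with CCCP. The CCCP libraries lay close together and below all controls, and the gene fell by 3.23 (SE 0.27, adjusted p = 1.9e-08). Zfp36, an RNA-binding protein that speeds the decay of AU-rich transcripts, was at 761, 985, 285 and 773 CPM in controls and at 52.8, 41.8, 28.2, 18.1 and 32.2 CPM with CCCP. Rgs1 and Rgs2, which shut off G protein signalling, fell by 3.47 (SE 0.34) and 4.25 (SE 0.36). Rgs1 was at 1216, 1301, 1456 and 1278 CPM in controls and at 97.0, 97.4, 78.9, 166 and 151 CPM with CCCP, and the groups did not overlap. Btg2 was at 259, 246, 286 and 261 CPM in controls and at 17.6, 20.0, 1.94, 19.9 and 6.56 CPM with CCCP, a fall of 4.30 (SE 0.45).

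Ctla2a, a cysteine protease inhibitor outside these lists, was among the genes of smallest p. It was at 2144, 2827, 2515 and 2899 CPM in controls and at 122, 115, 156, 135 and 122 CPM with CCCP. The spread within each group was small beside the gap, and Ctla2a fell by 4.32 (SE 0.29, adjusted p = 5.7e-10). It has a close paralog, Ctla2b, between which reads may have been split.

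Several inhibitors of NF-kB fell, and of its subunits only Rel passed. Of 23 tested genes of the NF-kB list 7 fell and none rose, with a median of -0.92. Nfkbiz and Nfkbid, nuclear inhibitor proteins that bind NF-kB, fell by 3.39 (SE 0.30) and 3.53 (SE 0.34). Nfkbiz was at 197, 140, 190 and 182 CPM in controls and at 11.9, 24.9, 13.2, 11.2 and 23.2 CPM with CCCP. Tnfaip3, which encodes the ubiquitin-editing enzyme A20, fell by 2.88 (SE 0.38, adjusted p = 3.7e-05). Socs3, an inhibitor of cytokine receptor signalling, was at 122, 139, 28.5 and 236 CPM in controls and at 9.83, 4.6, 16.7, 7.86 and 0.160 CPM with CCCP. Its groups did not overlap, but young control 3 came nearest to the CCCP libraries.

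In the TGF-beta list 7 of 22 tested genes fell and none rose, with a median of -1.20. Those that fell were mainly inhibitors and targets of the pathway. Skil, a co-repressor of SMAD proteins, was at 301, 341, 502 and 370 CPM in controls and at 21.6, 24.1, 40.1, 23.3 and 17.6 CPM with CCCP. Skil fell by 3.90 (SE 0.35, adjusted p = 6.1e-08). Id3, a dominant-negative partner of helix-loop-helix factors, was at 133, 175, 181 and 127 CPM in controls and at 3.57, 0.270, 0.778, 2.62 and 0 CPM with CCCP. Smad7, the inhibitory SMAD, fell by 4.01 (SE 0.50), and Tiparp, a mono-ADP-ribosyltransferase induced by the aryl hydrocarbon receptor, by 4.55 (SE 0.39). The receptors and signalling SMADs of the list were not among the called genes.

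Stress pathways that a loss of mitochondrial function is known to engage showed no rise that passed the test. The integrated stress response, through which the kinase Eif2ak1 and the factor Atf4 relay mitochondrial stress, had 4 of 25 tested genes lower and none higher (median -0.14; DESeq2 also called 4 lower and none higher). Atf4 itself was at 243, 255, 122 and 240 CPM in controls and at 84.9, 66.9, 49.0, 76.0 and 88.8 CPM with CCCP, all below the lowest control. Atf4 fell by 1.56 (SE 0.29, adjusted p = 0.0033). Cebpb, a bZIP factor, fell by 3.49 (SE 0.30), and its locus overlaps Tmem189 on the opposite strand. Gdf15, a secreted stress cytokine, fell by 3.47 (SE 0.81, adjusted p = 0.036), and Slc3a2, an amino acid transporter subunit, by 1.11 (SE 0.27, adjusted p = 0.044). Gdf15 and Slc3a2 passed in the fit without young control 3 and young CCCP 3 but not after 10 or more of the other changes of processing or samples.

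Chaperones, survival genes and elongation factors each held a few of the lower genes. Of 24 heat shock and ER chaperones 3 fell and none rose (median -0.59). Dnajb9, a co-chaperone of the ER, was at 100, 102, 111 and 105 CPM in controls and at 25.6, 27.7, 18.3, 12.6 and 27.7 CPM with CCCP. Dnajb1, the inducible cytosolic co-chaperone of HSP70, fell by 1.94 (SE 0.31), and Hspa4 by 1.51 (SE 0.28). Mcl1, an anti-apoptotic BCL2 relative on which HSC survival depends, was at 780, 822, 650 and 920 CPM in controls and at 144, 174, 73.1, 93.5 and 162 CPM with CCCP. Mcl1 was the only one of 13 tested BCL2 family genes that passed, and it fell by 2.61 (SE 0.27, adjusted p = 4.2e-07). In the list on transcription elongation 3 of 21 genes fell, with a median of -0.25. Ccnl1, a cyclin of splicing kinases, fell by 2.35 (SE 0.23). Ccnt1, the cyclin of P-TEFb, the kinase that releases paused RNA polymerase II, was at 244, 262, 143 and 268 CPM in controls and at 34.7, 66.1, 39.3, 40.7 and 68.1 CPM with CCCP. Aff4, a scaffold of elongation complexes, fell by 1.13 (adjusted p = 0.044) and did not pass without young control 3 and young CCCP 3 (adjusted p = 0.28).

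Cdkn1a, which encodes the cell cycle inhibitor p21, was the clearest change among cell cycle inhibitors and among p53 targets. It was at 300, 341, 398 and 429 CPM in controls and at 3.18, 18.5, 27.0, 7.38 and 4.48 CPM with CCCP. The groups were far apart, and Cdkn1a fell by 4.93 (SE 0.53, adjusted p = 1.0e-06). Of 20 tested p53 targets 2 fell and none rose, Cdkn1a and Gadd45b, a growth arrest factor that is also an NF-kB target. Gadd45b fell by 2.97 (SE 0.42), and young CCCP 3 had its highest CCCP level, 30.7 CPM. Of 20 cell cycle inhibitors and quiescence factors 2 fell, Cdkn1a and Hes1.

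Vegfa, the vascular growth factor, was the only one of 20 hypoxia genes that passed. It was at 182, 159, 127 and 228 CPM in controls and at 16, 5.81, 3.69, 3.93 and 11.4 CPM with CCCP, a fall of 4.40 (SE 0.44, adjusted p = 2.8e-07). Of 25 NRF2 and antioxidant genes 2 fell, with a median of -0.40. Prdx6, a peroxiredoxin, was at 1272, 1427, 1051 and 1399 CPM in controls and at 561, 608, 334, 671 and 649 CPM with CCCP, and fell by 1.19 (SE 0.25). Fth1, the ferritin heavy chain, fell by 1.25 (SE 0.29, adjusted p = 0.036), but by 0.93 (adjusted p = 0.29) without young control 3, its highest control at 4328 CPM, and young CCCP 3. Kdm6b, an H3K27 demethylase, was the only one of 31 chromatin regulators that passed, and it fell by 1.92 (SE 0.43, adjusted p = 0.023; 0.063 without those libraries).

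**Figure D2:**
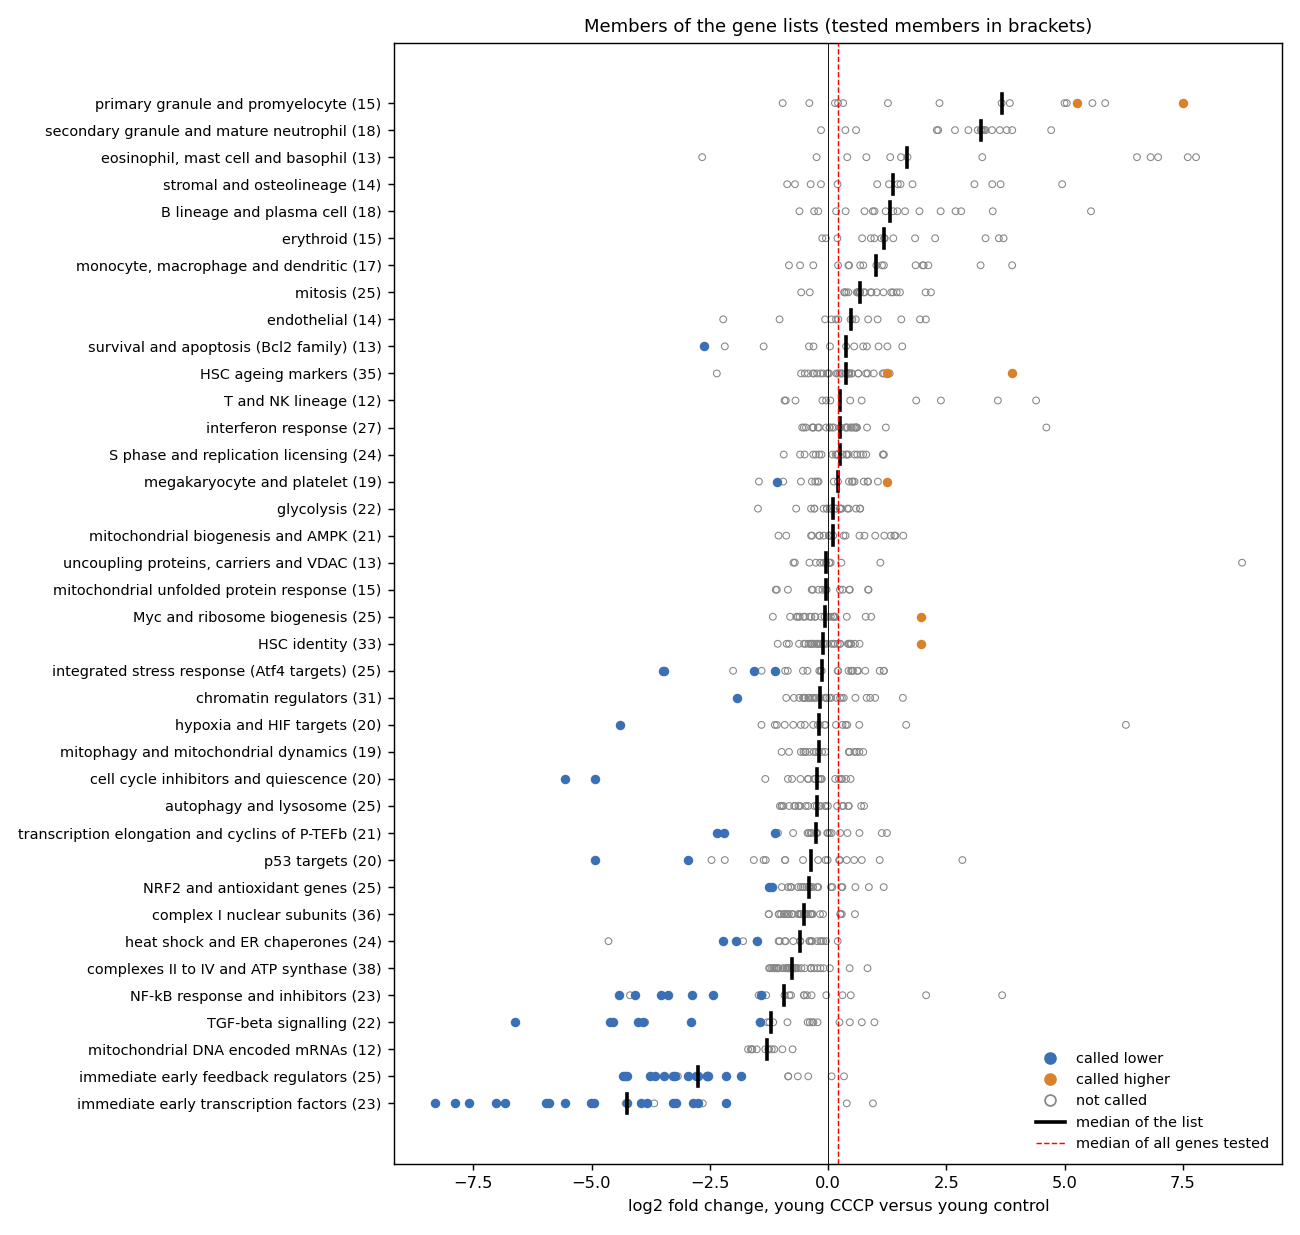
Log2 fold change of each tested member of the gene lists, young CCCP minus young control, with a point per gene and a bar for the list's median. The immediate early lists have medians of -4.24 and -2.76, while the mitophagy, biogenesis, glycolysis and HSC identity lists have medians between -0.20 and 0.11.

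Few genes rose, and the number depended on single libraries. The 16 higher genes became 3, 5 and 7 when young control 2, young control 3 or young control 4 was left out. With both young control 3 and young CCCP 3 left out they became 8 of 23419 (0.0342%), of which 5 were among the 16. DESeq2 called 266 of 18976 genes higher (1.4%), 15 of the 16 among them. In 13 of the 16 every CCCP library lay above every control, as in 436 of all tested genes (1.78%). Each of the 13 higher genes named here lost its call under at least 1 alternative, and none changed direction.

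Espl1, which encodes separase, the protease that parts sister chromatids, was at 5.52, 5.46, 5.44 and 5.03 CPM in controls and at 53.7, 43.0, 47.8, 32.9 and 25.8 CPM with CCCP. The groups were clearly apart, and Espl1 rose by 2.92 (SE 0.61, adjusted p = 0.014; 0.037 without young control 3 and young CCCP 3). Mycn, a MYC relative active in HSCs, was at 59.9, 50.7, 13.1 and 59.2 CPM in controls and at 167, 262, 50.2, 165 and 252 CPM with CCCP. Mycn rose by 1.97 (SE 0.43, adjusted p = 0.021), although young CCCP 3 lay within the control range. Rsrp1, an arginine- and serine-rich protein, was at 382, 274, 295 and 364 CPM in controls and at 1026, 1120, 343, 1179 and 955 CPM with CCCP. It rose by 1.49 (SE 0.32), and again only young CCCP 3 overlapped the controls. Without young control 3 and young CCCP 3 the adjusted p was 0.00071 for Mycn and 0.0014 for Rsrp1.

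Agtr1a, the angiotensin II receptor, had no read in any control. With CCCP it was at 7.94, 4.73, 44.5, 2.50 and 0.160 CPM, so young CCCP 3 carried most of the group's level and young CCCP 5 was below the floor of 3 reads. Set against that floor in each control library, the mean level was at least 25.8-fold higher with CCCP (adjusted p = 0.0035). Agtr1a was also present in all old control libraries, at 7.78 to 29.5 CPM. Vwf, the von Willebrand factor carried by platelet-biased HSCs, was at 56.8, 78.3, 66.4 and 70.7 CPM in controls and at 110, 176, 165, 125 and 232 CPM with CCCP. It rose by 1.25 (SE 0.29, adjusted p = 0.033; 0.065 without young control 3 and young CCCP 3). Zg16, a lectin-like protein also higher in aged HSCs, rose by 3.88 (SE 0.84, adjusted p = 0.019), and young CCCP 3 alone held 30.7 CPM against 1.09 to 7.17 CPM in the other CCCP libraries. Without those 2 libraries its adjusted p was 0.11. Its locus overlaps the noncoding gene Gm44939 on the opposite strand.

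Trmt12, a tRNA-modifying enzyme, ran from 4.79 to 16.3 CPM in controls and from 27.6 to 57.0 CPM with CCCP, a rise of 2.09 (SE 0.46). Mier2, Telo2 and Sugp2 rose by 2.33, 1.81 and 1.24, and none of the 3 passed without young control 3 and young CCCP 3 (adjusted p = 0.073, 0.093 and 0.086). Sugp2, a splicing-related protein, overlaps Armc6 on the opposite strand. The olfactory receptor Olfr447 rose by 7.86 (SE 1.83) on the strength of young CCCP 3, at 98.0 CPM against 0.406 to 3.93 CPM in the other CCCP libraries. Without young control 3 and young CCCP 3 its adjusted p was 0.70. DESeq2 called 266 of 18976 genes higher (1.4%). Of these, 82 had no overlap between groups and an average log2 CPM above 2, with predicted gene models left out. They include genes that also passed in edgeR. The leading ones that did not pass in edgeR were Ear2, Zfp719, Rprd1a, Thop1, Zfp507, Kcnk5, Hk3, Alas1, Nhsl2 and Cep89. Their log2 fold changes were 1.42 to 6.81, with edgeR adjusted p from 0.053 to 0.10. Alas1, the first enzyme of haem synthesis outside red cells, was at 49.2, 36.8, 11.7 and 49.9 CPM in controls and at 86.2, 66.1, 149, 111 and 80.6 CPM with CCCP. Hk3, the hexokinase of myeloid cells, ran from 15.5 to 29.0 CPM and from 45.1 to 101 CPM, and overlaps Unc5a on the opposite strand, as Nhsl2 does Rtl5.

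Elane and Ms4a3, markers of granulocyte progenitors, were 2 of the 16 higher genes. Elane, the neutrophil elastase of primary granules, was at 2.23, 3.82, 1.74 and 1.59 CPM in controls and at 596, 57.7, 671, 613 and 221 CPM with CCCP. Every CCCP library was far above the young controls, with young CCCP 2 the lowest. Elane rose by 7.50 (SE 1.45, adjusted p = 0.024), and Ms4a3, a membrane protein of granulocyte and monocyte progenitors, by 5.25 (SE 1.15, adjusted p = 0.021). Mpo, the myeloperoxidase, was at 7.36, 16.5, 17.6 and 4.10 CPM in controls and at 1168, 57.1, 725, 1150 and 182 CPM with CCCP (log2 fold change 5.86, adjusted p = 0.16 by edgeR and 1.8e-05 by DESeq2). Mpo and Ctsg, a granule protease with 0 to 2.23 CPM in controls and 6.90 to 80.9 CPM with CCCP, were chosen after their values were seen. Without young control 3 and young CCCP 3 neither Elane (adjusted p = 0.17) nor Ms4a3 (0.28) passed.

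Of 15 primary granule genes 2 rose and none fell in edgeR, and the median was 3.67. All CCCP libraries lay above all controls in 6 and below them in 1, against 1.78% and 2.89% of all tested genes. DESeq2 called 7 higher, against 1.4% of all genes, and 0 lower. Limma called 1 higher and 1 lower. An unadjusted p under 0.05 was found for 9 in the higher and 1 in the lower direction, against 6.35% and 4.80% of all tested genes. Of 18 tested secondary granule and neutrophil genes none passed in edgeR, while 13 had an unadjusted p under 0.05 in the higher direction, DESeq2 called 7 higher and limma none. Their median was 3.23. S100a8, an alarmin of neutrophils, was at 484, 60.8, 37.6 and 101 CPM in controls and at 2033, 154, 5176, 3966 and 1336 CPM with CCCP, so young CCCP 2 lay within the control range. The summed level of the secondary granule list ran from 834 to 3592 CPM in controls and from 1176 to 18290 CPM with CCCP. The summed primary granule level ran from 2024 to 2169 CPM and from 1500 to 4133 CPM. Prtn3, another primary granule protease, was at 201, 207, 226 and 228 CPM in controls and at 249, 172, 351, 367 and 206 CPM with CCCP, with overlap. In bulk samples, more cells of a type and more RNA per cell cannot be told apart, nor can fewer cells and less RNA.

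**Figure D3:**
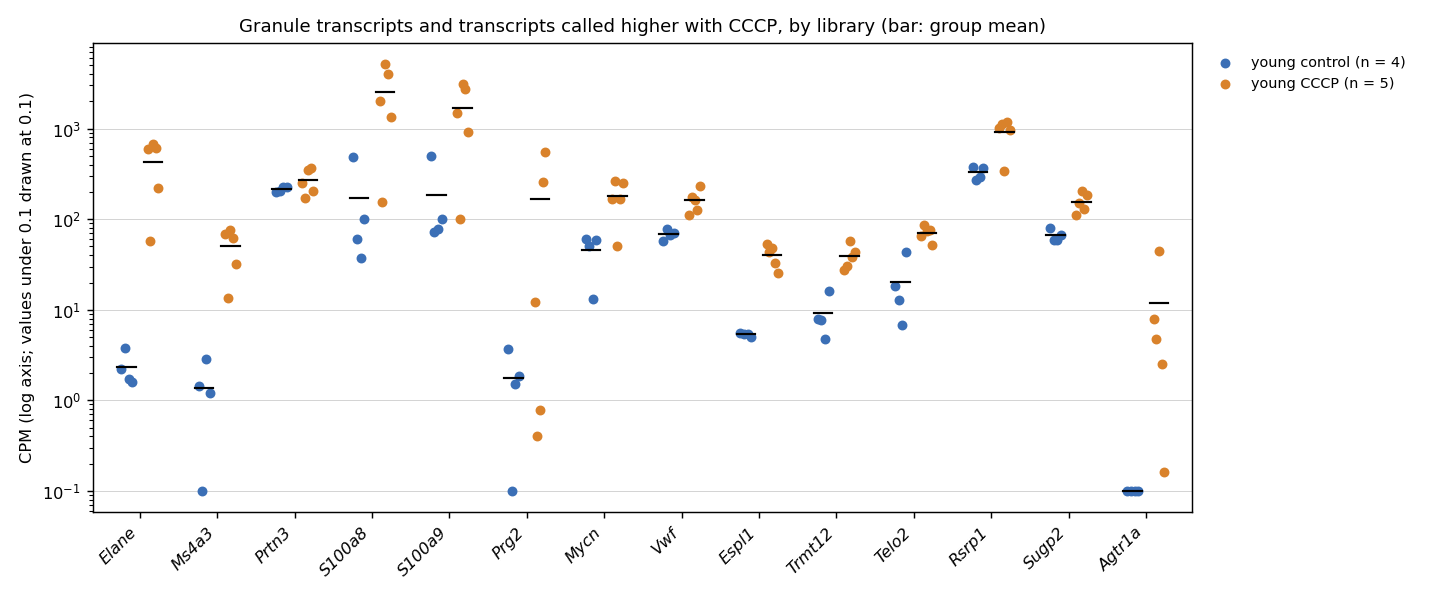
Level of granule transcripts and of transcripts called higher with CCCP, in CPM on a log axis, with a point for each library and a bar for the group mean. Elane lies between 57.7 and 671 CPM in CCCP libraries and between 1.59 and 3.82 CPM in controls, while Prtn3 overlaps between the groups.

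Markers of other marrow cells varied between CCCP libraries. Of 13 eosinophil, mast cell and basophil genes none passed in edgeR or limma and 4 were called higher by DESeq2. An unadjusted p under 0.05 was found for 6. Their summed level ran from 10.2 to 28.4 CPM in controls and from 21.8 to 1101 CPM with CCCP. Prg2, the major basic protein of eosinophils, was at 12.3, 0.406, 0.778, 258 and 556 CPM with CCCP and at 3.68, 0, 1.52 and 1.85 CPM in controls, so young CCCP 4 and 5 held nearly all of it. Of 15 erythroid genes, 17 monocyte and dendritic genes, 18 B lineage genes and 12 T and NK genes none passed. DESeq2 called 2, 2, 1 and 0 of them higher, and unadjusted p under 0.05 was found for 5, 2, 3 and 0. In the 14 endothelial and 14 stromal genes none passed in edgeR or DESeq2, and 2 and 1 had an unadjusted p under 0.05. Young CCCP 2 had Elane, Mpo, S100a8 and Prg2 at the lowest CCCP levels. It had Fos at 32.3, Nr4a1 at 22.3 and Cdkn1a at 18.5 CPM, against lowest controls of 1436, 911 and 300 CPM. Its Fos and Nr4a1 were the highest among the CCCP libraries. The part of these marker transcripts in the fall of immediate early genes was not tested, and a single library cannot show it.

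Genes of mitochondrial function themselves did not pass in edgeR. Of 12 messenger RNAs encoded by mitochondrial DNA none was called by edgeR, DESeq2 or limma. Of these, 7 had an unadjusted p under 0.05, all lower, against 4.80% of all tested genes in that direction. The median of the 12 was -1.30, which moved to -0.27 without young control 3 and young CCCP 3. The summed level ran from 7593 to 31231 CPM in controls and from 4763 to 10494 CPM with CCCP. mt-Co1, a catalytic subunit of complex IV, was at 4113, 4490, 9738 and 3407 CPM in controls and at 2498, 2959, 1697, 3506 and 5493 CPM with CCCP. The groups overlapped, and young control 3 was the highest library. The 36 nuclear subunits of complex I and the 38 genes of complexes II to IV and ATP synthase held no gene called by edgeR. DESeq2 called 0 and 1 lower. Unadjusted p under 0.05 in the lower direction was found for 10 and 18, against 4.80% of all tested genes. The medians of these lists were -0.51 and -0.76, against 0.21 over all tested genes. Without young control 3 and young CCCP 3 they became -0.18 and -0.32, against 0.08 over all tested genes. Ndufs8, a core complex I subunit, was at 224, 179, 451 and 189 CPM in controls and at 161, 129, 142, 178 and 156 CPM with CCCP (adjusted p = 0.35).

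The programmes known to answer mitochondrial damage gave small medians. Over all tested genes the median was 0.21, and 11.2% had an unadjusted p under 0.05. In the mitochondrial unfolded protein response, whose chaperones and proteases refold or clear proteins in the matrix, 0 of 15 genes passed in edgeR, DESeq2 or limma (5 at an unadjusted p under 0.05; median -0.05). Of 19 mitophagy and dynamics genes none passed in edgeR, 2 had an unadjusted p under 0.05, and DESeq2 and limma each called 1 lower. Map1lc3b, the LC3 protein of autophagosomes, was at 664, 603, 582 and 665 CPM in controls and at 351, 384, 129, 399 and 326 CPM with CCCP. All CCCP libraries were below all controls, but the log2 fold change of -0.98 (SE 0.28) did not pass (adjusted p = 0.15 by edgeR, 0.013 by DESeq2). None of 21 biogenesis and AMPK genes passed in edgeR, DESeq2 or limma, 6 had an unadjusted p under 0.05, and the median was 0.11. Of 13 uncoupling, carrier and channel genes edgeR and limma called none, DESeq2 called 1 higher, and 3 had an unadjusted p under 0.05. Of 22 glycolysis genes none passed in edgeR or limma, DESeq2 called 1 lower, 2 had an unadjusted p under 0.05, and the median was 0.11.

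No cell cycle gene of the mitosis and S phase lists passed in edgeR. Of 25 mitosis genes 23 had a positive estimate, 7 an unadjusted p under 0.05, all higher, and 5 had all CCCP libraries above all controls. Over all tested genes 58.7% had a positive estimate and 6.35% an unadjusted p under 0.05 in the higher direction. All CCCP libraries lay above all controls in 1.78% of them. DESeq2 and limma each called 3 mitosis genes higher, of 266 and 73 over all genes. The median was 0.67, against 0.21 over all tested genes. Top2a, a topoisomerase of dividing cells, was at 131, 167, 116 and 126 CPM in controls and at 175, 251, 122, 321 and 176 CPM with CCCP, with overlap through young CCCP 3 (adjusted p = 0.48). Cenpf, a kinetochore protein chosen after its values were seen, ran from 0.435 to 22.6 CPM in controls and from 45.9 to 91.8 CPM with CCCP (adjusted p = 0.14 by edgeR, 0.0088 by DESeq2). Of 24 S phase genes none passed in edgeR, DESeq2 or limma, 2 had an unadjusted p under 0.05, and the median was 0.25. Of 33 HSC identity genes 1 rose, Mycn, and none fell, and the median was -0.11. Mycn was also the only one of 25 Myc and ribosome biogenesis genes that passed (median -0.08). Of 19 megakaryocyte and platelet genes 1 rose, Vwf, and 1 fell, Rap1b, a small GTPase of platelet adhesion, from 481 to 628 CPM in controls to 191 to 322 CPM with CCCP. Of 27 interferon response genes none passed in edgeR, DESeq2 or limma, 3 had an unadjusted p under 0.05, and the median was 0.26. Of 25 autophagy and lysosome genes none passed in edgeR, 7 had an unadjusted p under 0.05, and DESeq2 and limma each called 2 lower.

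The CCCP libraries were set against the old controls to see which features of old HSCs they shared. The difference between these groups includes the difference in age. By edgeR's quasi-likelihood test 704 of 24523 genes passed (2.87%), 209 higher (0.852%) and 495 lower (2.02%) in young CCCP. This count rested on single old libraries: leaving out old control 3 gave 32, old control 2 gave 47 and old control 1 gave 1543. Leaving out young CCCP 1, 2, 3 or 5 gave 287, 399, 1139 or 321. Genes are therefore named below with the number of alternatives, if any, under which they did not pass.

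Of the 160 genes lower than in young controls, 136 did not pass against old controls, 18 were lower in young CCCP and 6 were higher. Not passing does not show that levels were equal. Of the 23 immediate early transcription factors 4 were lower in young CCCP than in old controls and none was higher. The median was -0.52, while it was -4.24 against young controls. For the 25 feedback regulators it was -0.18 against old controls and -2.76 against young controls, with 3 lower than in old controls and 0 higher. Fos was at 44.1, 58.1 and 50.8 CPM in old controls, above the 32.3 CPM of the highest CCCP library, and was lower in young CCCP by 1.76 on the log2 scale (SE 0.41, adjusted p = 0.022). Fos did not pass in 6 alternatives. Jun was at 280, 598 and 502 CPM in old controls, above all CCCP libraries (log2 difference -2.23, SE 0.31, adjusted p = 0.00056). Fosb was at 9.75, 47.8 and 41.0 CPM in old controls (log2 difference -3.07, SE 0.49, adjusted p = 0.0016), and Egr1 at 131, 102 and 126 CPM (-1.54, SE 0.29, adjusted p = 0.0079). Jun, Fosb and Cebpb passed in every alternative, and Egr1 did not without old control 3. Nr4a1, at 4.04, 7.62 and 16.8 CPM in old controls, did not pass against young CCCP (log2 difference 0.53, SE 0.49), and neither did Cdkn1a (-0.60, SE 0.52), at 4.28, 31.6 and 19.1 CPM.

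Most markers of aged HSCs did not differ detectably between CCCP and young controls, and several were lower with CCCP than in old controls. Against young controls 2 of 35 such markers rose, Vwf and Zg16, and none fell, with a median of 0.37 (0.21 over all tested genes). Without young control 3 and young CCCP 3, 0 of these markers passed. DESeq2 called 2 higher and 1 lower, and limma 1 higher and 0 lower. An unadjusted p under 0.05 was found for 5 in the higher and 1 in the lower direction, against 6.35% and 4.80% of all tested genes. Against old controls 12 of 35 were lower and none higher, with a median of -1.33. Gpr183, an oxysterol receptor, was at 103, 119 and 174 CPM in old controls, at 5.66, 5.54, 3.69, 2.62 and 6.24 CPM with CCCP and at 4.07, 3.14, 0 and 7.93 CPM in young controls. Its locus lies within Ubac2 on the opposite strand. Clu, the secreted chaperone clusterin, was at 287, 420 and 291 CPM in old controls and at 41.1, 42.1, 38.3, 76.7 and 58.1 CPM with CCCP, lower by 2.7 (SE 0.32, adjusted p = 9.0e-05). Mt1, a metallothionein that binds zinc, was at 179, 345 and 522 CPM in old controls and at 16.5, 13.4, 40.6, 22.6 and 27.0 CPM with CCCP. Nupr1, a stress-responsive chromatin protein, and Cavin2, a coat protein of caveolae, were lower with CCCP by 3.43 (SE 0.46) and 1.86 (SE 0.25), and so was the calcium-activated channel regulator Clca3a1 by 2.61 (SE 0.34). All of these, and Pdzk1ip1, an HSC membrane protein lower by 2.11, passed in every alternative.

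Some of the 209 genes higher in young CCCP than in old controls (0.852%) are named here. Skil was at 5.23, 8.57 and 10.3 CPM in old controls, under the 17.6 CPM of the lowest CCCP library, so the CCCP libraries lay between the young and the old controls (log2 difference 1.66, SE 0.39, adjusted p = 0.022; not passed in 5 alternatives). Fbxo30, a ubiquitin ligase subunit, was at 9.75, 8.57 and 13.8 CPM in old controls and at 37.7, 65.2, 24.9, 49.2 and 56.5 CPM with CCCP (not passed without old control 2). Flna, the actin cross-linker filamin A, was at 45.7, 52.7 and 84.5 CPM in old controls and at 276, 242, 364, 183 and 502 CPM with CCCP, and passed in every alternative. Mki67, the proliferation antigen, was at 45, 36.9 and 59.4 CPM in old controls and at 161, 181, 192, 205 and 214 CPM with CCCP (log2 difference 2.02, SE 0.33; not passed without old control 2). In young controls Mki67 ran from 98.4 to 203 CPM, and CCCP did not differ from them by edgeR (adjusted p = 0.67). Espl1 was higher by 2.73 (SE 0.68, adjusted p = 0.030; not passed in 5 alternatives). Fth1 was lower by 1.61 (SE 0.31) and did not pass in 3 alternatives.

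**Figure D4:**
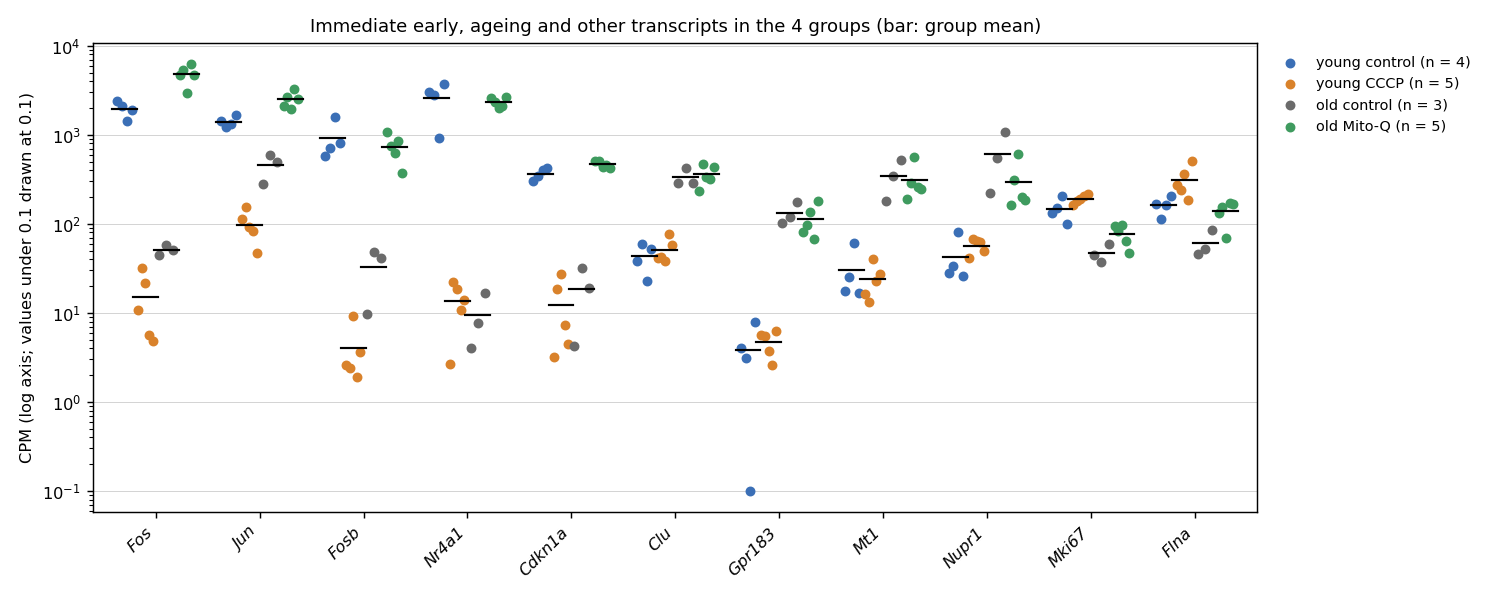
Level of immediate early, ageing and other transcripts in the 4 groups, in CPM on a log axis, with a point for each library and a bar for the group mean. Fos lies between 4.80 and 32.3 CPM with CCCP, between 44.1 and 58.1 CPM in old controls and between 2942 and 6241 CPM in old Mito-Q libraries, while Clu and Gpr183 overlap between CCCP and young controls.

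The difference between young CCCP and young controls was tested against the difference between old Mito-Q and old controls. Mito-Q is a ubiquinone antioxidant that gathers in mitochondria. The agents differ in age of the mice, dose and number of injections, which cannot be told apart from the agent. In edgeR's quasi-likelihood test of this interaction 308 genes passed (1.26%), 36 with a more positive (0.147%) and 272 with a more negative (1.11%) CCCP difference. In the immediate early transcription factors this held for 0 and 20 of 23, with a median of -7.96, and in the feedback regulators for 0 and 18 of 25. Fos was at 4662, 5306, 2942, 6241 and 4710 CPM in Mito-Q libraries, above every old control and also above every young control, and its CCCP difference minus its Mito-Q difference was -13.57 (SE 0.80, adjusted p = 3.4e-11). Nr4a1 was at 2587, 2333, 1994, 2120 and 2657 CPM with Mito-Q, within the range of young controls (-15.53, SE 0.94). Egr1 ran from 1814 to 2297 CPM with Mito-Q (-9.13, SE 0.50), and Skil from 177 to 568 CPM (-9.37, SE 0.60). Prdx6 was at 682, 1282 and 1067 CPM in old controls and ran from 1334 to 1803 CPM with Mito-Q (-1.78, SE 0.37, adjusted p = 0.0084; not passed without old control 1).

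A smaller set had a more positive CCCP difference than Mito-Q difference. Mycn was at 193, 249 and 196 CPM in old controls and at 92.0, 131, 46.9, 112 and 102 CPM with Mito-Q, with no overlap, and the interaction was 3.10 (SE 0.61, adjusted p = 0.0043). Hist1h1d, a linker histone with close paralogs, was at 10.6, 8.32, 24.4 and 11.1 CPM in young controls and at 19.6, 43.1, 161, 51.2 and 51.3 CPM with CCCP. It was at 21.9, 63.4 and 100 CPM in old controls and at 4.49, 5.65, 7.35, 12.4 and 2.19 CPM with Mito-Q (interaction 5.53, SE 0.85, adjusted p = 0.00019). Luc7l3, a splicing factor, ran from 61.1 to 102 CPM in young controls, 117 to 208 CPM with CCCP, 124 to 288 CPM in old controls and 60.4 to 82.4 CPM with Mito-Q. Its groups did not overlap within either age (interaction 2.36, SE 0.42). Rsrp1, Trmt12, Snhg20 and Sugp2 had interactions of 2.44, 3.68, 3.22 and 1.90, and Agtr1a one of 10.04 (SE 1.94), a fitted value that is no bound because young controls had no read. Sugp2 did not pass without a filter on low counts or without old control 2, and the others passed in every alternative.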

How the data were processed

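RNA was sequenced from sorted HSCs with Nextera XT libraries at reduced volume, per the labels' protocols. Per the submitters' processing notes, reads were trimmed with Trim Galore and aligned with STAR 2.7 to GRCm38. How reads were counted (program, strand, annotation release, duplicates) is not given in the sources used here. The authors deposited raw read counts per Ensembl gene. The 5 footer entries for reads in no gene stayed out of library sizes. GENCODE M21 gave names for 54809 of 54838 gene IDs. Groups came from sample titles.

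All 17 libraries were fitted in edgeR 4.0.16 (R 4.3.3) using TMM scaling, a filter by group with filterByExpr (minimum count 10), and the robust two-sided quasi-likelihood F-test with Benjamini-Hochberg adjustment over 24523 genes. Genes with adjusted p below 0.05 are called. The contrasts were young CCCP against young control, young CCCP against old control, and the CCCP difference minus the Mito-Q difference. All were log2 values with standard errors (SE). Alternatives were DESeq2 1.42.0, limma 3.58.1 (voom with sample weights), other scalings and filters, a covariate for reads in no feature, a replicate block, fewer libraries and leaving out each library. The procedure was tested on simulated data. The floor of 3 reads was 0.298 to 0.653 CPM and covers counting error only, since amplified reads carry no molecular identifiers and are not independent. No library was a copy of another (lowest chi-square per degree of freedom 18.2).

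The members and the 38 gene lists were chosen with earlier results of these data known. Lists are given by counts and medians. Named genes were up to 15 called genes in each direction by smallest p above an average log2 CPM of 2, up to 4 called members of each list or else its most abundant ones, 3 for mitochondrial and other-cell lists, up to 10 higher genes called by DESeq2 without overlap, and up to 8 in each direction for the other contrasts. Predicted gene models were left out.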

Additional observations from a re-analysis of the deposited data

Results flagged for a closer look

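In groups of 4 or 5 libraries, a library was singled out where its gap to the nearest other library was a large share of the group's range (Dixon's test, 95%). Of 108 groups of named genes tested, 14 had such a library, and chance alone gives about 1 in 20. Of the 14, 8 were young CCCP 3 and 4 young control 3, the 2 libraries that correlated least with the others.

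Young CCCP 3 was the highest CCCP library for Fosb (9.33 CPM), Hes1 (8.17), Skil (40.1), Gadd45b (30.7), Agtr1a (44.5), Zg16 (30.7) and Olfr447 (98.0), and the lowest for Rsrp1 (343). Young control 3 was the highest control for Nr4a2 (245 CPM) and Hes1 (272) and the lowest for Atf4 (122) and Dnajb1 (248). Young control 4 was lowest for Espl1 (5.03 CPM) in a group that spans 5.03 to 5.52 CPM, and young control 2 was the only control with a read of Olfr447 (0.273 CPM). Fosb, Hes1, Skil, Gadd45b, Nr4a2, Atf4 and Dnajb1 passed the edgeR test with and without these libraries. Zg16 and Olfr447 did not pass without young control 3 and young CCCP 3. The part of library quality in these values was not tested.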

How the results depend on the processing

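Young CCCP against young control gave 176 calls. It gave 558 with DESeq2, 364 with limma, 324 without a low-count filter and 111 with the 9 young libraries only. Higher calls, 16, were 266, 73, 97 and 6 under these, and 8 without young control 3 and young CCCP 3. Lower calls, 160, were 292 with DESeq2, 291 with limma and 105 with the 9 young libraries only. Leaving out each library gave 129 to 185 calls, 3 to 18 higher and 118 to 167 lower. Young CCCP against old control gave 704 calls, and 2030 with DESeq2, 3470 with limma, 122 with the covariate for reads in no feature, 1972 without young control 3 and young CCCP 3 and 32 to 1543 when each library was left out. The interaction with Mito-Q gave 308 calls, and 708 with DESeq2, 851 with limma, 543 without a filter and 234 to 361 when each library was left out. The cause of these differences was not tested.

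Same-numbered libraries did not deviate together over all genes (correlations 0.06, -0.10, 0.04 and -0.0018). This cannot show whether they share more than a number. With the replicate block the counts were 168 (11 higher, 157 lower), 615 and 298. Young control 1 to 4 correlated best with young CCCP 1, 1, 5 and 2, so not every library matched its own number.

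Of 54 named genes called in young CCCP against young control, 34 were called in every alternative and none changed sign. The log2 difference of Nr4a1 from old controls was -0.0136 with limma. Medians of 5 lists changed sign by at least the pooled within-group standard deviation of the list's mean log2 level. The integrated stress response, -0.14, was 0.0721 at a minimum count of 30, 0.0445 with the 9 young libraries only, 0.0724 with the replicate block and -0.157 to 0.0253 when each library was left out, the highest without young CCCP 3. The uncoupling list, -0.04, was -0.181 to 0.131 when each library was left out, the highest without young control 1, the BCL2 family, 0.38, was -0.0332 with the block, the T and NK list, 0.26, was -0.134 with the covariate and the stromal list, 1.38, was -0.0492 with limma. Smaller changes of sign were not counted. The mitochondrial unfolded protein response, at -0.053, was 0.145 without young control 3 and young CCCP 3. The median of all genes was 0.21 with TMM, 0.29 with DESeq2 size factors and 0.18 with upper-quartile factors. Genes with few reads are limited by depth, and 3 reads was the floor in each library.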
